A study of Mus musculus with 18 samples.

Results

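In the embryonic mouse cortex, 7 genes of eye and pigment cell development were followed: Dct, Mitf, Tyrp1 and Pmel of the pigment programme, and Rax, Six6 and Mab21l2 of the early eye. They were taken as a list of gene names, matched to Ensembl IDs, and all 7 of 7 were found among the 38355 genes listed for each library. RNA came from dissected cortical tissue of C57BL/6 embryos at embryonic stage E12.5. There were 5 libraries of Dmrt3 knockout (KO) cortex (Dmrt3-/-, replicates 1 to 5), 4 of Dmrt5 KO cortex (Dmrt5-/-, replicates 1, 2, 4 and 5), 5 of double KO cortex (Dmrt3-/-;Dmrt5-/-, replicates 1 to 5) and 4 of wild-type (WT) cortex (replicates 1 to 4). Dmrt3 and Dmrt5 (current symbol Dmrta2) encode DM-domain transcription factors of the cortical primordium. How the null alleles were made is not stated, nor whether each library is a different embryo or litter, so p-values measure only the spread between these libraries.

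The pigment programme makes melanin in the melanosomes of neural crest-derived melanocytes and of the retinal pigment epithelium. In it the basic helix-loop-helix factor MITF switches on melanosomal genes, among them Dct (dopachrome tautomerase), Tyrp1 (tyrosinase-related protein) and Pmel (the amyloid scaffold protein of the melanosome). The eye field arises in the anterior neural plate beside the future telencephalon and hypothalamus. The homeobox genes Rax and Six6 act there and later in retina and hypothalamus, and Mab21l2 is needed for formation of the optic cup and lens. Dct is also a known marker of the dorsal telencephalon.

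Library totals lay between 19602718 and 33072896 counts, and levels are given as CPM, the counts-per-million scale, with library totals adjusted by TMM factors. Dmrt3 averaged 0.308 CPM in Dmrt3 KO and 0.157 CPM in double KO, against 56.9 CPM in WT. Dmrta2 averaged 10.7 CPM in Dmrt5 KO and 3.55 CPM in double KO, against 194 CPM in WT. The cortical gene Emx1 averaged 8.51 CPM in double KO and 153 CPM in WT. Of 9 markers of retina and pigment epithelium, 7 had at most 6 counts in any library, with no count of Crx or Rpe65 in 15 of 18 libraries each. The other two were detected in every library, Rlbp1, known from both retinal pigment epithelium and glia, at 8.26 to 59.8 CPM and Best1 at 0.841 to 1.97 CPM. Of 9 markers of lens and surface ectoderm, Foxe3 had no count in 16 libraries and Cryaa in 17, while Cryba1 was at 0.0852 to 0.89 CPM and the epithelial gene Epcam at 3.24 to 12.1 CPM. Tyr, the melanin-synthesis enzyme tyrosinase, had no count in 13 libraries and at most 2 counts in any, and Mlana had no count in 10 and at most 3.

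The promoters of the genes that changed most are shown first, with that of Tyrp1 for comparison, because Dct and Tyrp1 carry the same pair of short motifs. Sequences are RefSeq's for GRCm38.p6, 250 bases before to 50 after each start site, on the gene's own strand. Promoters of 5 of the 7 genes were searched, with 3 for Mitf, and those of Pmel and Rax were not searched. Capitals mark CATGTG, the E-box form known from MITF target promoters, and TAATCC, the core known to bind OTX-type homeodomains, on either strand (CACATG and GGATTA on the other). The palindromes CACGTG and TAATTA, another E-box and a homeodomain core, were searched too, and none of the 4 motifs shares letters with another in these windows.
Dct, chr14:118052197-118052496, minus strand: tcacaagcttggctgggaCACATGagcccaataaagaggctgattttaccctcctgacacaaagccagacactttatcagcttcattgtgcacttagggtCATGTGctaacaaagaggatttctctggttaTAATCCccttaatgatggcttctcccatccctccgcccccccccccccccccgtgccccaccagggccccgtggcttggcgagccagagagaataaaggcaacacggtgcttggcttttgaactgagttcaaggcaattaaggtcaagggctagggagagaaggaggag
Tyrp1, chr4:80833963-80834262, plus strand: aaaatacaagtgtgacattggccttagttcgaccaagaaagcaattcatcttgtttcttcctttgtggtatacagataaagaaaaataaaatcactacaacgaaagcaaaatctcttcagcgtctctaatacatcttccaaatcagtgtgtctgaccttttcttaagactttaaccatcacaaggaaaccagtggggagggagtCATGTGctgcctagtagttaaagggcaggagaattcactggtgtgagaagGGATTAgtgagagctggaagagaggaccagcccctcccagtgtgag
Mab21l2, chr3:86548234-86548533, minus strand: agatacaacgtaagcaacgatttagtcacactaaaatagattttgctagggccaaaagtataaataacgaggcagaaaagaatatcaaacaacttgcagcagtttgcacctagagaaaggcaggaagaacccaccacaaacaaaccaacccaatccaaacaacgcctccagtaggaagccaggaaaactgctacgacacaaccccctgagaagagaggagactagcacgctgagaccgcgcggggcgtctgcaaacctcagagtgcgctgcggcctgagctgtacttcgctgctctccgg

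In the Dct promoter CATGTG lay 150 bases before the start site and, on the other strand, 232 bases before it, and TAATCC lay 119 bases before it. In the Tyrp1 promoter CATGTG lay 46 bases before the start site, and TAATCC began 4 bases after it on the other strand. CATGTG was in 14.2% of 32807 RefSeq promoters of this length, TAATCC in 7.07%, and both together in 338, or 1.03%. The Mab21l2 and Six6 windows held none of the 4 motifs, where CACGTG was in 7.15% and TAATTA in 5.3% of all promoters. Of the 3 Mitf promoters the first held none, the second held TAATCC on the other strand and the third held TAATTA. These letters describe the windows and say nothing of binding in these cells.

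Dct (ENSMUSG00000022129; mm10 chr14:118012790-118052244, minus strand) was the gene that moved most, and it was lower in each genotype that lacked Dmrt5. Dct was at 8.94, 10.3, 7.70, 6.52 and 9.83 CPM in the Dmrt3 KO libraries and at 2.27, 1.70, 1.47 and 1.32 CPM in the Dmrt5 KO libraries. It was at 0.342, 0.411, 0.356, 0.724 and 0.156 CPM in the double KO libraries, which is 4 to 17 counts a library. In the WT libraries it was at 17.6, 12.8, 13.7 and 11.8 CPM. The 4 genotypes did not overlap: every double KO library was below every Dmrt5 KO library, every Dmrt5 KO library below every Dmrt3 KO library, and every Dmrt3 KO library below every WT library. Such downward separation was found for 1.37% of tested genes in double KO against Dmrt5 KO and 1.67% in Dmrt3 KO against WT. Shares for Dmrt5 KO against Dmrt3 KO, and for all 4 genotypes at once, were not computed. Means were 8.66 ± 1.55 CPM in Dmrt3 KO (SD, n = 5), 1.69 ± 0.418 CPM in Dmrt5 KO (n = 4), 0.398 ± 0.206 CPM in double KO (n = 5) and 14.0 ± 2.54 CPM in WT (n = 4).

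**Figure D1:**
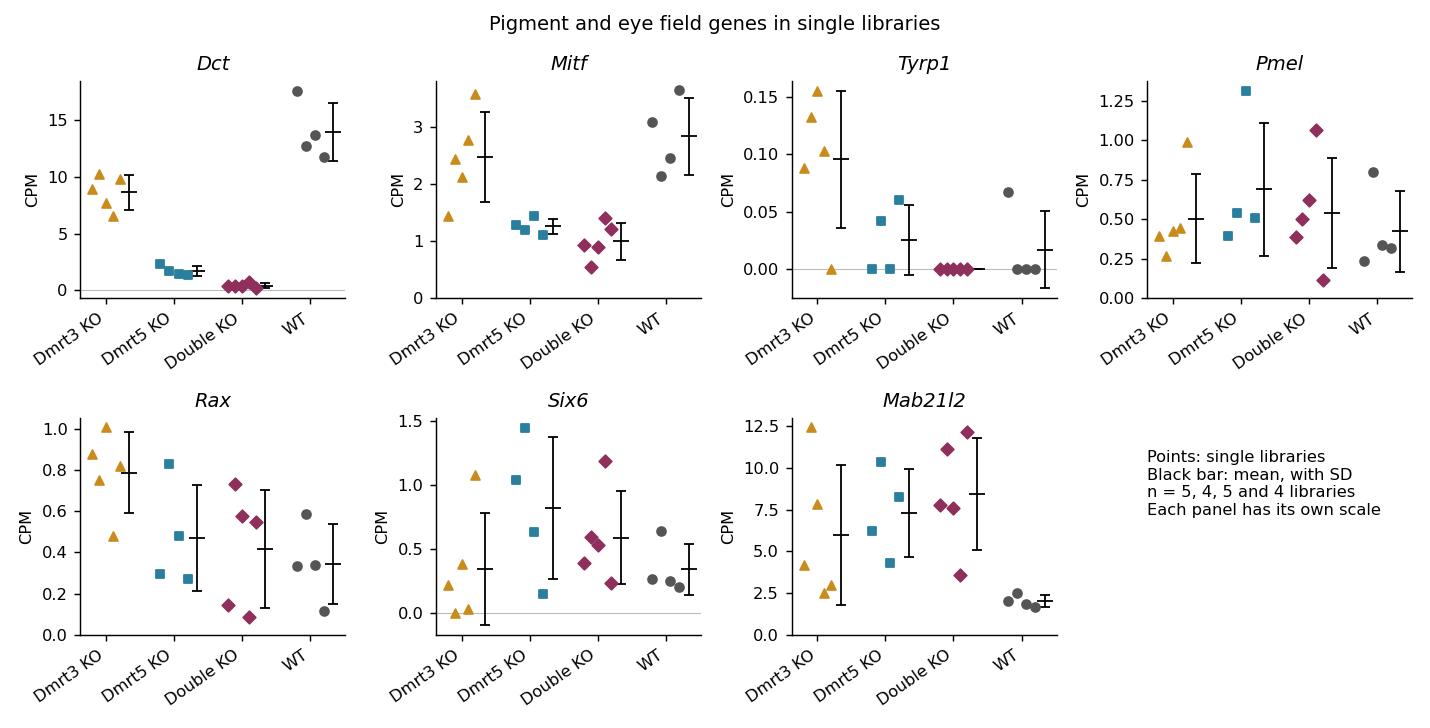
Level of each of the 7 genes in CPM (vertical axes, a scale for each panel) in Dmrt3 KO, Dmrt5 KO, double KO and WT libraries; points are libraries and black bars are means with SD. Dct was highest in WT, at 11.8 CPM or more, and lowest in double KO, at 0.724 CPM or less, while Mab21l2 was lowest in WT, at 2.51 CPM or less.

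Differences were tested with edgeR's quasi-likelihood test on all 18 libraries and 16236 genes, and a gene is called changed at a Benjamini-Hochberg adjusted p under 0.05. Dct fell 8.27-fold in Dmrt5 KO cortex against WT (log2 difference -3.05 ± 0.29, SE, edgeR adjusted p = 5.15e-05). It fell 34.8-fold in double KO cortex against WT (-5.12 ± 0.30, adjusted p = 2.79e-08). In Dmrt3 KO cortex the log2 difference from WT was -0.69 ± 0.25, which was not called (adjusted p = 0.61), although all 5 libraries were below all 4 WT libraries, a separation found for 1.67% of all genes tested. These 3 comparisons share their WT libraries. The double KO was also set against each single KO: Dct was 21.6-fold lower than in Dmrt3 KO (log2 difference -4.43 ± 0.29, adjusted p = 6.59e-08) and 4.20-fold lower than in Dmrt5 KO (-2.07 ± 0.30, adjusted p = 0.00195). The last call was lost when only those 2 genotypes entered the fit, with the same difference of -2.07 and an adjusted p of 0.11.

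An interaction term asked whether the double loss lowered Dct by more than the sum of the single log2 differences. On the CPM scale that sum is a product of fold changes. The log2 interaction of Dct was -1.38 ± 0.39, with an unadjusted p of 0.00246 and an edgeR adjusted p of 0.292, and was not called. With DESeq2 the same term was -1.39 with an adjusted p of 0.0345, which passes the threshold, so the answer depends on the tool.

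Mitf (ENSMUSG00000035158; mm10 chr6:97807052-98021349, plus strand), the gene for the factor that drives pigment genes in melanocytes, also fell in double KO cortex. Mitf was at 1.45, 2.43, 2.13, 2.78 and 3.58 CPM in Dmrt3 KO, at 1.29, 1.20, 1.43 and 1.11 CPM in Dmrt5 KO and at 0.929, 0.548, 0.890, 1.41 and 1.21 CPM in double KO. WT libraries were at 3.09, 2.13, 2.45 and 3.65 CPM. All Dmrt5 KO and double KO libraries were below all WT libraries, a separation found for 4.34% of genes in Dmrt5 KO and 3.4% in double KO. These genotypes overlapped each other, and Dmrt3 KO overlapped WT. The fall in double KO was 2.84-fold against WT (log2 difference -1.50 ± 0.27, edgeR adjusted p = 0.00243) and 2.47-fold against Dmrt3 KO (-1.30 ± 0.26, adjusted p = 0.00694). In Dmrt5 KO the difference from WT was -1.17 ± 0.29 with an adjusted p of 0.0612, short of a call. It was called without WT replicate 2 (-1.28, adjusted p = 0.0427) and with DESeq2 (-1.17, adjusted p = 0.00652). Differences of -0.20 between Dmrt3 KO and WT (adjusted p = 0.739) and -0.33 between double KO and Dmrt5 KO (adjusted p = 0.997) were not called, and the interaction was -0.13 (adjusted p = 0.886).

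The summed level of 10 mesenchyme markers (collagens, Foxc1, Twist1 and others), cells of the tissue around the brain, varied widely within each genotype. It was 576 to 2742 CPM in Dmrt3 KO (median 1004), 427 to 1715 CPM in Dmrt5 KO (median 581) and 43.1 to 2110 CPM in double KO (median 157), against 771 to 2453 CPM in WT (median 1164), so the genotypes overlapped. With the mean log2 level of these markers as a covariate, Mitf was no longer called between double KO and Dmrt3 KO (-1.09, adjusted p = 0.126). The calls of Dct in every comparison, and of Mitf between double KO and WT, were kept with that covariate. In bulk tissue such as this, fewer cells of a type and less RNA per cell cannot be told apart.

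Mab21l2 (ENSMUSG00000057777; mm10 chr3:86545581-86548629, minus strand) went the other way. Mab21l2 was at 4.16, 12.46, 7.86, 2.54 and 2.97 CPM in Dmrt3 KO and at 6.23, 10.4, 4.30 and 8.28 CPM in Dmrt5 KO. It was at 7.78, 11.1, 7.61, 3.62 and 12.1 CPM in double KO, against 2.02, 2.51, 1.86 and 1.68 CPM in WT. Every KO library of the 3 genotypes was above every WT library, and the KO genotypes overlapped one another. The KO libraries also varied much more, with an SD of 4.18 CPM in Dmrt3 KO, 2.61 CPM in Dmrt5 KO and 3.36 CPM in double KO, against 0.356 CPM in WT. Mab21l2 rose 4.20-fold in double KO against WT (log2 difference 2.07 ± 0.46, edgeR adjusted p = 0.00911). The differences of 1.86 ± 0.47 in Dmrt5 KO (adjusted p = 0.0704) and 1.58 ± 0.45 in Dmrt3 KO (adjusted p = 0.351) were not called. The Dmrt5 KO difference was called with DESeq2 (1.87, adjusted p = 0.00381), with only the compared genotypes (1.87, adjusted p = 0.0316) and with the mesenchyme score as a covariate (1.56, adjusted p = 0.0485). Such upward separation from WT was found for 2.57% of genes in double KO, 4.39% in Dmrt5 KO and 0.696% in Dmrt3 KO. Double KO differed from Dmrt3 KO by 0.50 (adjusted p = 0.511) and from Dmrt5 KO by 0.21 (adjusted p = 0.997), neither called.

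In the KO genotypes the libraries highest in Mab21l2 were also highest in the mean of 5 hypothalamus genes, though not always in the sum of all 10 listed. These 5 are part of that list, and their mean was chosen after seeing the data. Within Dmrt3 KO, replicates 2 and 3 were highest in Mab21l2 and in the mean log2 CPM of the hypothalamic transcription factor genes Otp, Sim1, Foxb1, Hmx2 and Hmx3, at 0.54 and -0.07, where the other 3 lay between -2.09 and -1.15. Within Dmrt5 KO, replicates 2 and 5 were highest in both, and within double KO, replicates 2 and 5. In WT it was not so: replicate 2, highest in Mab21l2, had the lowest score of its genotype, -1.70, and replicate 4, lowest in Mab21l2, the highest, -0.72. Over the 18 libraries, after each genotype's mean was taken out, Pearson's r of Mab21l2 was 0.715 with Otp, 0.734 with Hmx3, 0.597 with Hmx2, 0.577 with Sim1, 0.469 with Foxb1 and 0.620 with Nkx2-1, as a description of libraries that share their depth. The r of Mab21l2 with Nkx2-4, Fezf1, Shh and Pomc was not computed. The summed level of all 10 hypothalamus markers was 81.1 to 234 CPM in Dmrt3 KO, 210 to 285 CPM in Dmrt5 KO and 242 to 442 CPM in double KO, against 83.7 to 126 CPM in WT. By that sum Dmrt3 KO replicate 2 was again highest of its genotype. Dmrt5 KO replicate 2, at 263 CPM, was below replicates 5 and 1, at 285 and 267 CPM. Double KO replicate 5, at 282 CPM, was below replicates 2 and 3, at 442 and 364 CPM. Among the 9 hypothalamus markers tested, Nkx2-1 and Shh rose in double KO against WT, by 2.0 and 1.95 on the log2 scale (edgeR adjusted p = 0.0116 and 0.00979). Over all tested genes 2.42% rose. The median difference of the 9 was 1.54. The calls of Nkx2-1 and Shh were both lost with the mesenchyme score as a covariate (adjusted p = 0.118 and 0.12). Otp, Sim1, Foxb1, Hmx2 and Hmx3 were not called in double KO against WT (edgeR adjusted p = 0.151 to 0.821). Fezf1 and Pomc were not called either, at 0.63 and 0.35 on the log2 scale (edgeR adjusted p = 0.128 and 0.777). Nkx2-4 did not pass the filter, at a mean of 0.0189 CPM in double KO and 0.0965 CPM in WT. Nkx2-1 made up much of the summed level, at a mean of 234 CPM in double KO and 58.4 CPM in WT. The sum therefore follows Nkx2-1 more than the rest of the list, and which tissue the rise came from was not tested.

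**Figure D2:**
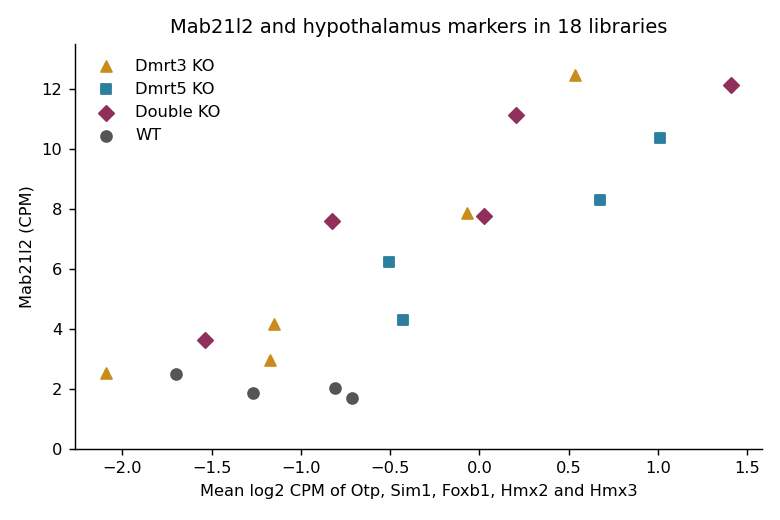
Mab21l2 in CPM (vertical axis) against the mean log2 CPM of 5 hypothalamus genes (horizontal axis); each point is one library, with a symbol for each genotype. The highest Mab21l2 library of each KO genotype, at 12.46, 10.4 and 12.1 CPM, was also its highest on the horizontal axis, and the WT libraries stayed at or below 2.51 CPM.

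With the hypothalamus score as a covariate, Mab21l2 was 1.32 higher in double KO than in WT on the log2 scale and was still called (edgeR adjusted p = 0.0113), against 2.07 without it. In Dmrt5 KO the difference was 0.92 with that covariate (adjusted p = 0.248). With the mesenchyme score as a covariate, which brought the Dmrt5 KO difference just past the threshold, the double KO difference was 1.12 and its call was lost (adjusted p = 0.206). Double KO replicate 5, the library with the highest Mab21l2 of its genotype, had the lowest mesenchyme score of all 18 libraries, 0.43, where the others lay between 3.0 and 6.91. Mab21l2 is transcribed from within Lrba on the opposite strand, and the library kit did not mark strand. Lrba averaged 26.7 CPM in double KO and 27.4 CPM in WT, a log2 difference of -0.04 (adjusted p = 0.961).

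Tyrp1 (ENSMUSG00000005994; mm10 chr4:80834123-80851719, plus strand), a melanosomal enzyme, was at the limit of detection and did not pass the filter for testing. It had 2, 3, 4, 3 and 0 counts in the Dmrt3 KO libraries, 0, 1, 0 and 2 counts in Dmrt5 KO, and 2, 0, 0 and 0 counts in WT. It had no count in any double KO library, which over the 5 libraries together allows a level of up to 0.026 CPM, a floor that covers counting error only. The sums over libraries were 12 counts in Dmrt3 KO, 3 in Dmrt5 KO, 0 in double KO and 2 in WT, and the mean in Dmrt3 KO was 0.0956 CPM. Differences between genotypes were not tested at these counts.

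Pmel (ENSMUSG00000025359; mm10 chr10:128704195-128720238, plus strand), the melanosome scaffold, was low and scattered. Pmel was at 0.394, 0.265, 0.426, 0.446 and 0.991 CPM in Dmrt3 KO, 0.396, 0.539, 1.32 and 0.510 CPM in Dmrt5 KO and 0.391, 0.502, 0.623, 1.06 and 0.117 CPM in double KO. WT libraries were at 0.235, 0.801, 0.339 and 0.318 CPM. The genotypes overlapped throughout, and the log2 differences from WT were 0.30 ± 0.55 for Dmrt3 KO, 0.76 ± 0.56 for Dmrt5 KO and 0.40 ± 0.55 for double KO (edgeR adjusted p = 0.803, 0.658 and 0.837). Pmel shares 837 bases of its span with Cdk2 on the opposite strand, a gene at 81.9 to 91.2 CPM on average, and without strand the reads there cannot be assigned.

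Rax (ENSMUSG00000024518; mm10 chr18:65928277-65939787, minus strand), among the earliest eye field genes, was close to 1 CPM or below in every library. Rax was at 0.877, 0.751, 1.01, 0.480 and 0.819 CPM in Dmrt3 KO, 0.297, 0.83, 0.478 and 0.270 CPM in Dmrt5 KO and 0.147, 0.731, 0.578, 0.0852 and 0.546 CPM in double KO. WT libraries were at 0.336, 0.587, 0.339 and 0.116 CPM. Dmrt3 KO had the highest mean, 0.787 ± 0.195 CPM against 0.344 ± 0.193 CPM in WT, yet 1 of its 5 libraries lay inside the WT range. That log2 difference of 1.24 ± 0.53 was not called (edgeR adjusted p = 0.65), nor were those of 0.49 ± 0.56 in Dmrt5 KO and 0.34 ± 0.55 in double KO (adjusted p = 0.797 and 0.868).

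Six6 (ENSMUSG00000021099; mm10 chr12:72939892-72944899, plus strand), a homeobox gene of retinal and hypothalamic progenitors, was as low. Six6 was at 0.219, 0, 0.387, 0.0343 and 1.08 CPM in Dmrt3 KO, 1.04, 1.45, 0.638 and 0.150 CPM in Dmrt5 KO and 0.391, 0.594, 0.534, 1.19 and 0.234 CPM in double KO. WT libraries were at 0.269, 0.640, 0.254 and 0.203 CPM. All genotypes overlapped, and the log2 differences from WT of 0.05 ± 0.83 for Dmrt3 KO, 1.29 ± 0.83 for Dmrt5 KO and 0.84 ± 0.81 for double KO were not called (edgeR adjusted p = 0.978, 0.6 and 0.717). Six6 shares 883 bases with 4930447C04Rik on the opposite strand, which averaged 1.53 to 1.93 CPM in the 4 genotypes.

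**Figure D3:**
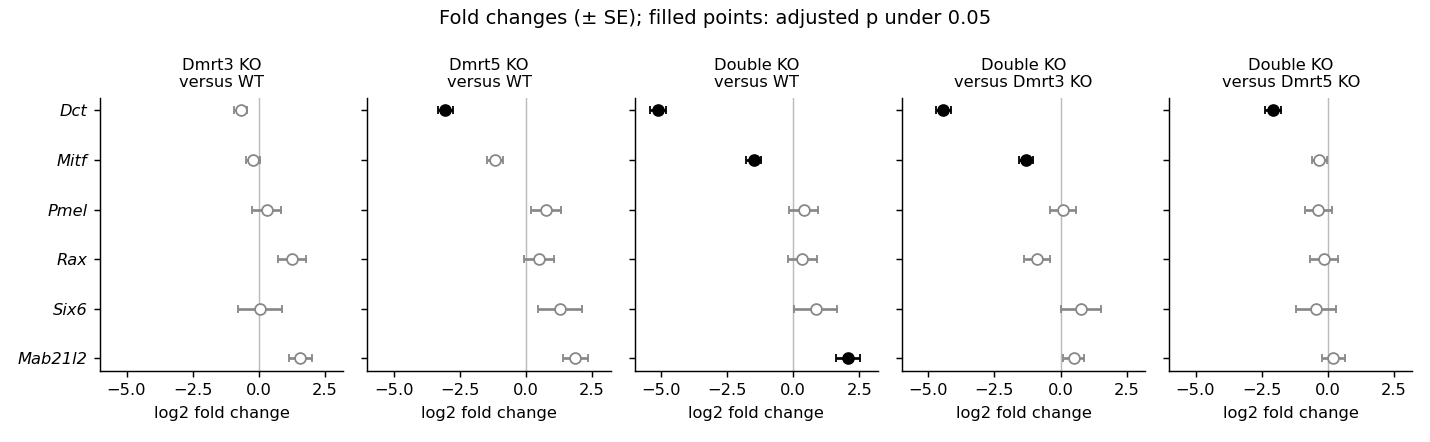
Log2 fold changes with SE (horizontal axes) of the 6 tested genes in 5 comparisons; filled points passed an edgeR adjusted p of 0.05. Dct lies farthest to the left in each comparison with a Dmrt5-null genotype, at -3.05 in Dmrt5 KO and -5.12 in double KO against WT, and Mab21l2 lies farthest to the right against WT.

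Counted together, 1 of the 6 tested genes rose and 2 fell in double KO against WT, where 2.42% of all tested genes rose and 3.81% fell. In Dmrt5 KO against WT 1 fell and none rose by edgeR, where 0.69% of all genes fell and 0.339% rose; at an unadjusted p under 0.05 it was 2 lower and 1 higher, where 11.3% of all genes passed in either direction. DESeq2 also called 2 lower and 1 higher, where it called 1.4% of all genes lower and 1.29% higher. In Dmrt3 KO none of the 6 was called by edgeR or by DESeq2, where by edgeR 0.00616% of all genes rose and 0.00616% fell. DESeq2 called 0.00616% of all genes higher and 0.326% lower. At an unadjusted p under 0.05, 2 were higher and 1 lower, where 7.16% of all genes passed in either direction. Against Dmrt3 KO 2 fell in double KO and none rose by edgeR, where 1.96% of all genes fell and 1.74% rose. DESeq2 gave the same counts, where it called 2.9% of all genes lower and 3.11% higher. So did an unadjusted p under 0.05, where 17.4% of all genes passed in either direction. Against Dmrt5 KO only Dct fell in double KO, where 0.32% of all genes fell and 0.0123% rose. Downward separation of the libraries, which Dct showed in both of these comparisons and Mitf against Dmrt3 KO, was found for 1.37% of genes against Dmrt5 KO and 2.51% against Dmrt3 KO, and upward separation for 0.407% and 2.29%. In the interaction 0 of the 6 were called lower by edgeR, where 0.142% of all genes were, and 1 by DESeq2, where 0.376% were. At an unadjusted p under 0.05, 2 were lower, where 9.22% of all genes passed in either direction. The median log2 difference over the 6 genes in double KO was 0.37, with a range of -5.12 to 2.07, so they had no common direction.

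Per kilobase (kb) of exon, the order of the 7 genes in double KO differed from that in WT. In double KO Mab21l2 was highest, at a mean of 2.77 CPM per kb. Below it, without overlap, came Pmel at 0.235, Mitf at 0.161, Six6 at 0.147, Rax at 0.0714 and Dct at 0.0675 CPM per kb, each of which overlapped its neighbours in that order, and Tyrp1 was at 0. In WT Dct was highest, at 2.37 CPM per kb, and overlapped no other gene. It was followed by Mab21l2 at 0.661, Mitf at 0.457, Pmel at 0.185, Six6 at 0.0852, Rax at 0.0589 and Tyrp1 at 0.00594 CPM per kb, again with overlap between all neighbours. Among the tested genes with a known length, the level per kb of Dct stood at percentile 1.44 in double KO and 35.7 in WT, and that of Mab21l2 at percentile 39.0 in double KO and 17.5 in WT.

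Of 12 further pigment genes 7 passed the filter on low counts, and Trpm1 was the only one called. Trpm1, the melastatin channel gene known as an MITF target in melanocytes, rose in Dmrt5 KO and in double KO, where 0.339% and 2.42% of all tested genes rose. Trpm1 was at 0.544, 0.871, 1.63 and 1.17 CPM in Dmrt5 KO and 0.734, 1.05, 0.845, 1.45 and 1.87 CPM in double KO, against 0.403, 0.267, 0.212 and 0.318 CPM in WT. All libraries of both genotypes were above all WT libraries, a separation found for 4.39% of tested genes in Dmrt5 KO and 2.57% in double KO. It was 3.88-fold higher in double KO than in WT (log2 difference 1.96 ± 0.40, edgeR adjusted p = 0.00547) and 3.45-fold higher in Dmrt5 KO (1.79 ± 0.41, adjusted p = 0.0458). The Dmrt5 KO call was lost without WT replicate 1, 2, 3 or 4 or without Dmrt5 KO replicate 2, 4 or 5, one at a time, at adjusted p-values of 0.0738 to 0.144. It held in only 4 of 17 alternatives. It was also lost by edgeR with no filter (adjusted p = 0.0626) and with only the compared genotypes (0.0938). The same was true with the mesenchyme score (0.0532), the hypothalamus score (0.153) and without each genotype's most mesenchyme-rich library (0.224). The median log2 difference of the 7 genes was -0.29 in Dmrt5 KO and 0.07 in double KO. The MITF relatives Tfe3, Tfeb and Tfec differed in double KO from WT by log2 values between -0.59 and 0.11, with no call; Tfe3 averaged 62.4 ± 7.78 CPM in double KO and 57.9 ± 2.22 CPM in WT.

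Markers of neural crest and melanoblasts were present at low levels and moved in both directions. Their summed level over 6 genes was 22.1 to 37.6 CPM in double KO and 27.5 to 73.9 CPM in WT, most of it from Kit. In double KO against WT, Foxd3, a crest specifier gene, fell (log2 difference -2.70 ± 0.72, edgeR adjusted p = 0.0314), Kit, a melanoblast receptor gene, fell (-1.18 ± 0.27, adjusted p = 0.0111), and Pax3, a crest and dorsal neural tube gene, rose (2.34 ± 0.49, adjusted p = 0.00622). The Foxd3 call rested on 0 to 4 counts a library in double KO and was lost without double KO replicate 1, 2 or 3 or WT replicate 2 or 4, and with the mesenchyme score as a covariate (adjusted p = 0.338). The Kit call was lost without WT replicate 4, the library with the highest Kit, at an adjusted p of 0.0516. By edgeR it was also lost with only the compared genotypes (adjusted p = 0.122) and without each genotype's most mesenchyme-rich library (0.0616). Sox10, which marks crest-derived glia and melanoblasts, averaged 2.40 CPM in double KO and 2.37 CPM in WT (log2 difference 0.01, adjusted p = 0.997). The part of crest-derived cells in the Dct and Mitf values was not tested.

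Other genes of eye development split, as the plot of further pigment and eye genes shows. Of 18 listed, 17 were tested, and in double KO against WT 4 rose and 3 fell, where 2.42% of all tested genes rose and 3.81% fell. The median log2 difference of the 17 was 0.04. Six3, an eye field and forebrain homeobox gene, was at 102, 125, 115 and 114 CPM in Dmrt5 KO and 139, 177, 160, 134 and 182 CPM in double KO, against 53.1, 66.0, 57.5 and 49.5 CPM in WT. It rose 2.01-fold in Dmrt5 KO (log2 difference 1.01 ± 0.13, edgeR adjusted p = 0.000862) and 2.80-fold in double KO (1.49 ± 0.12, adjusted p = 8.59e-07), with no overlap with WT. Such upward separation was found for 4.39% of tested genes in Dmrt5 KO and 2.57% in double KO. Lhx2, a LIM-homeobox gene of both cortex and optic vesicle, was at 349, 389, 350 and 330 CPM in Dmrt5 KO and 212, 303, 279, 269 and 220 CPM in double KO, against 800, 702, 795 and 722 CPM in WT. It fell 2.13-fold in Dmrt5 KO (-1.09 ± 0.12, adjusted p = 0.000177) and 2.94-fold in double KO (-1.56 ± 0.11, adjusted p = 2.03e-07). In double KO Pax6 rose by 0.85 ± 0.15 (adjusted p = 0.00208) and Sfrp1, a secreted Wnt modulator gene, fell by 0.87 ± 0.14 (adjusted p = 0.000702).

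**Figure D4:**
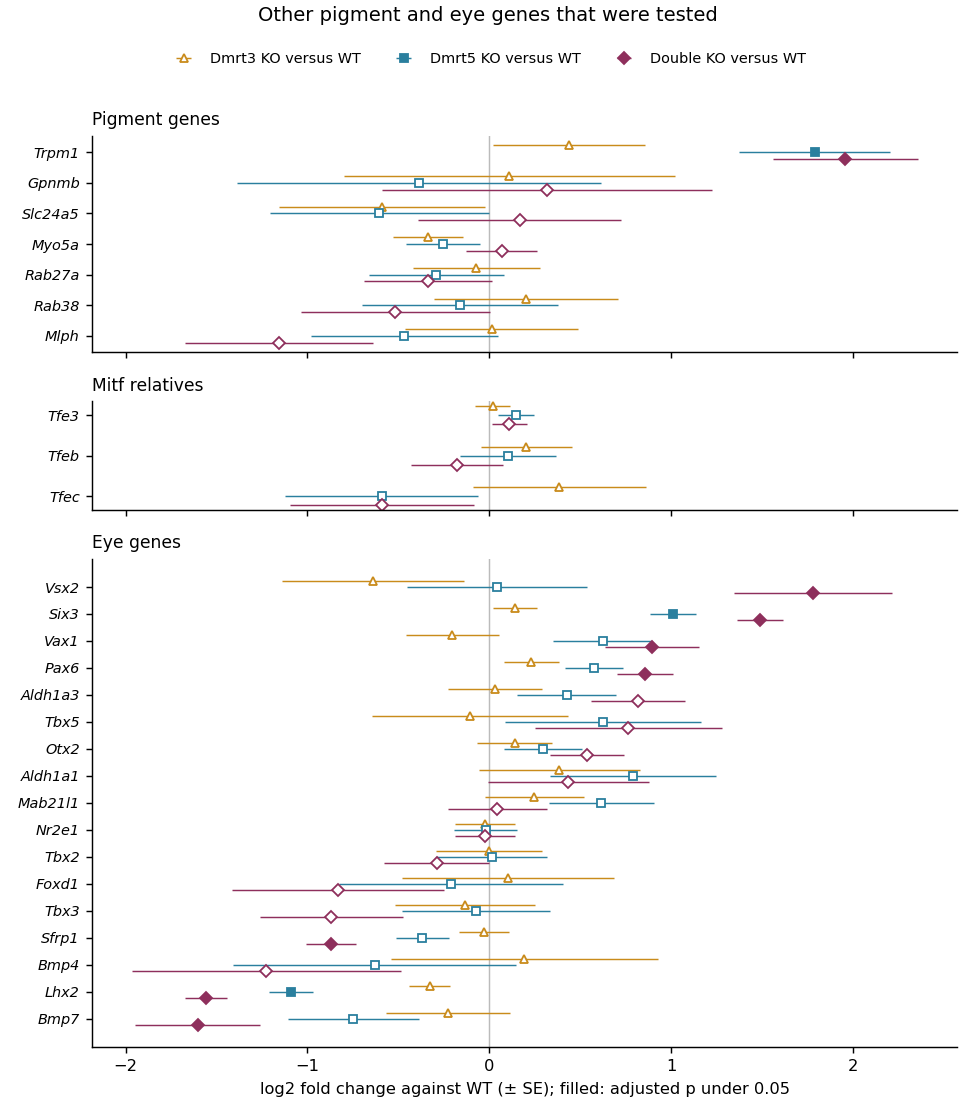
Log2 fold change against WT with SE (horizontal axis) of the tested genes from 3 lists, with a symbol for each KO genotype; filled symbols passed an edgeR adjusted p of 0.05. Trpm1, Six3 and Lhx2 have filled symbols in Dmrt5 KO and in double KO, with Trpm1 and Six3 to the right and Lhx2 to the left.

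Genes most like Dct over the 18 libraries were sought by Pearson's r of log2 CPM among 12798 genes, as a description dominated by the genotype differences. The 5 closest were Lmx1a (0.980), Lhx2 (0.969), E330013P04Rik (0.966), Fezf2 (0.964) and Ccno (0.964). Lmx1a, a homeobox gene of roof plate and cortical hem, averaged 2.36 ± 1.04 CPM in double KO and 18.9 ± 1.26 CPM in WT; after genotype means were taken out its r with Dct was 0.620. Of other genes of the dorsal midline, Wnt3a then had r = 0.481 with Dct, Wnt2b -0.132 and Wnt8b -0.206. Lmx1a belongs to a list of 10 dorsal midline genes, hem and choroid plexus markers. Against WT 10 of them fell in double KO, where 3.81% of all tested genes did. In Dmrt5 KO 6 of them fell, where 0.69% of all tested genes did. The summed level of the 10 genes was 61.1 to 138 CPM in Dmrt5 KO and 23.9 to 52.4 CPM in double KO, against 273 to 474 CPM in WT. The part of hem and choroid plexus cells in the Dct values was not tested. Most like Mitf were Fam84b (0.945), Tgfb2 (0.943), Hif3a (0.936), Adam12 (0.934) and Sulf1 (0.923). Most like Mab21l2 were Pdlim3 (0.901), Rem2 (0.893), Ccdc184 (0.883), Nefl (0.877) and Nrsn2 (0.873). Dct and Mitf, at r = 0.851 over all libraries, had r = 0.053 once genotype means were removed.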

How the data were processed

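The deposited files held raw counts per Ensembl gene for each of 18 libraries, made by the authors with TruSeq RNA Sample Prep Kit v2, per the labels' protocols. The submitters' processing notes name STAR 2.3.0e, featureCounts 1.4.6-p1, DESeq2 1.8.2, the mm10 build, FastQC 0.10.1, CASAVA 1.8.2 and bcl2fastq. Gene names came from GENCODE M21 for 36602 of 38355 IDs; the rest held 0.397% of counts. Counts were filtered with filterByExpr, scaled by TMM and fitted with edgeR 4.0.16 in R 4.3.3 over all 18 libraries by genotype, with 6 contrasts and Benjamini-Hochberg adjustment over 16236 genes. SEs were the log2 change over the square root of F. CPM uses TMM factors; log2 CPM for correlations and scores has a prior count of 2. Scripts were tested on simulated data. The genes and lists were chosen with earlier results of these data known. The 7 genes are all reported; of other lists up to 4 called genes per comparison, by lowest adjusted p, are named. Alternatives were DESeq2 1.42.0, no filter, RLE scaling (as DESeq2 size factors), upper-quartile scaling, only the compared genotypes, a replicate block, a mesenchyme score as covariate and each library left out; a hypothalamus score as covariate and leaving out each genotype's most mesenchyme-rich library were chosen after seeing the data. Reads were not analysed here.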

Additional observations from a re-analysis of the deposited data

Results flagged for a closer look

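In 4 of 28 groups of libraries checked, one library of the group stood apart from the others by Dixon's gap test at its 95% critical value, which chance flags in about 1 group in 20. Pmel in Dmrt3 KO replicate 5 was at 0.991 CPM, with the next library at 0.446 CPM (gap over range 0.751). Pmel in Dmrt5 KO replicate 4 was at 1.32 CPM, with the next at 0.539 CPM (gap over range 0.844). These were the libraries of their genotypes with the highest mesenchyme score, 6.91 and 6.39, and the part of mesenchyme in them was not tested. In double KO, replicate 4 was likewise highest in both, at 6.56 and 1.06 CPM of Pmel. In WT it was not so: replicate 4 had the highest score, 6.46, and 0.318 CPM of Pmel, while replicate 2 was highest in Pmel at 0.801 CPM. Six6 in WT replicate 2 was at 0.640 CPM, with the next at 0.269 CPM (gap over range 0.849). Tyrp1 in WT replicate 1 had 2 counts where the other 3 WT libraries had 0 (gap over range 1). Any count above 0 gives that value when the others are tied at 0, so this flag carries no weight. The rate of 1 in 20 does not hold for such ties.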

How the results depend on the processing

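The double KO calls of Dct and Mitf against WT, and the Dmrt5 KO call of Dct, held under every alternative run, with log2 differences of -5.51 to -4.78, -1.66 to -1.28 and -3.23 to -2.89. No call changed sign. Counts of the 7 genes called moved as follows, and the causes were not tested. In Dmrt5 KO against WT, 1 gene (Mab21l2) was higher instead of 0 with DESeq2, only the compared genotypes, the replicate block or the mesenchyme score, and 2 genes (Mitf beside Dct) were lower instead of 1 with DESeq2 or the replicate block; leaving out one library gave 1 to 2 lower. With the mesenchyme score, 0 instead of 1 was higher in double KO against WT and 1 instead of 2 lower against Dmrt3 KO. With only the compared genotypes, 0 instead of 1 was lower in double KO against Dmrt5 KO. With DESeq2, 1 instead of 0 was lower in the interaction. Same-numbered libraries were alike in some pairs and not in others. Over 24 such pairs the correlation of deviations from genotype means was -0.357 to 0.703, and over 0.1 in 15. Pairs numbered 2 and 4 were all positive, at 0.0588 to 0.703. The best match had the library's own number in 16 of 48 cases. What equal replicate numbers mark is not stated. With the replicate block, genes called in Dmrt5 KO against WT were 184 higher and 196 lower, against 55 and 112 without it. Over all genes, counts moved by more than 1.5 times with DESeq2: 210 higher and 228 lower in Dmrt5 KO against WT, 53 lower in Dmrt3 KO against 1, 656 higher in double KO against 393, 505 higher than Dmrt3 KO against 282, 13 higher and 99 lower than Dmrt5 KO against 2 and 52, and 66 higher and 61 lower in the interaction against 0 and 23. With only the compared genotypes, 52 were lower in Dmrt5 KO, 131 higher and 237 lower in double KO against WT (393 and 619 otherwise), 148 and 210 against Dmrt3 KO (282 and 318 otherwise) and 19 lower against Dmrt5 KO. With the mesenchyme score, 126 and 287 were called in double KO against WT and 80 and 192 against Dmrt3 KO; with the hypothalamus score, 14 were higher in Dmrt5 KO and 225 and 186 in double KO against WT and Dmrt3 KO, 10 in double KO against Dmrt5 KO, and 19 in the interaction. Without the filter 31 were higher in Dmrt5 KO. Leaving out one library gave 14 to 55 higher and 40 to 170 lower in Dmrt5 KO, 252 to 734 and 465 to 1272 in double KO against WT, 167 to 555 and 229 to 882 against Dmrt3 KO, 1 to 5 and 33 to 74 against Dmrt5 KO, 0 to 7 and 15 to 31 in the interaction, and 1 to 5 lower in Dmrt3 KO. Counts of 1 or 2 otherwise moved between 1 and 2. Depth limits Tyrp1, Pmel, Rax and Six6, which had at most 35 counts in any library.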

Other observations

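Some listed markers of tissue next to the cortex moved in double KO beside the eye and pigment genes, and others did not. Of 7 diencephalon genes, all tested, 2 rose against WT, where 2.42% of all tested genes did. These were Gbx2, a thalamic homeobox gene, by 1.62 on the log2 scale (edgeR adjusted p = 0.0321) and Lhx5, a LIM-homeobox gene, by 1.07 (adjusted p = 0.00664). Irx1, Irx3, Irx5, Barhl2 and Nkx2-2 were not called, at 0.33, -0.50, -0.02, -0.04 and 2.14. The median log2 difference of the 7 was 0.33. The Gbx2 call was lost without WT replicate 1, 2 or 4 or without double KO replicate 1, 2 or 3. Of 9 lens and surface ectoderm genes 6 were tested. The epithelial keratin genes Krt8 and Krt18 fell, by 1.83 and 1.54 on the log2 scale (edgeR adjusted p = 0.0222 and 0.0186). Over all tested genes 3.81% fell. The median log2 difference of the 6 was -0.51. Krt14, Epcam, Krt5 and Cryba1, the rest of those tested, were not called. Mean levels of Krt14 and Epcam were higher in double KO than in WT, at 0.681 against 0.141 CPM and 7.55 against 6.83 CPM. Those of Krt5 and Cryba1 were lower, at 0.904 against 1.12 CPM and 0.168 against 0.301 CPM. Both keratin calls were lost without WT replicate 2 (adjusted p = 0.0869 and 0.0877). That of Krt8 was also lost without WT replicate 3 or double KO replicate 1, and that of Krt18 without double KO replicate 2. With the mesenchyme score as a covariate the calls of Gbx2, Lhx5, Krt8 and Krt18 were all lost. Their part in the values of the eye and pigment genes was not tested. Median log2 differences in double KO against WT were -1.17 over 10 mesenchyme genes, 0.21 over 7 microglia genes and 0.25 over the 2 tested retina and pigment epithelium genes of 9, with each of these genes short of a call, and none of 7 pituitary genes passed the filter on low counts.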
